A study of Mus musculus with 18 samples.

Results

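Quadriceps muscle of obese mice given prednisone once a week for 12 weeks was compared with quadriceps of vehicle-treated mice, gene by gene, in 6 of the 18 RNA-seq libraries of the series. The 6 libraries were chosen by their labels for tissue and regimen, and the genes by level: 12246 of the 33641 genes in the deposited table had at least 1 TPM (the share of a library's transcripts that belongs to a gene, corrected for transcript length) in at least 3 of the 9 quadriceps libraries. All mice were wild-type DBA/2J males, described as about 20 weeks old, that had eaten a high-fat diet for 12 weeks before treatment and stayed on it through the 12 weeks of treatment. The weekly group (3 libraries) received prednisone intraperitoneally at 1 mg/kg once per week. The vehicle group (3 libraries) is labelled as daily vehicle, and whether weekly mice received vehicle on the other days is not given in the sources used here. A daily prednisone group (3 quadriceps libraries, same dose) was fitted together with them and is used only for comparison. Quadriceps was collected 24 hours after the final injection, and the time of day is not given in the sources used here. Every group, vehicle included, was obese by diet, so no lean reference enters the comparison.

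Prednisone is a synthetic glucocorticoid that the liver converts to its active form, prednisolone. The active steroid binds the glucocorticoid receptor (Nr3c1), which leaves its chaperones, enters the nucleus and binds response elements near target genes such as Fkbp5, Tsc22d3, Per1 and Klf15. In skeletal muscle, glucocorticoids are known for inducing the ubiquitin ligases Trim63 (MuRF1) and Fbxo32 (atrogin-1), which mark muscle proteins for the proteasome, and for altering amino acid and glucose handling.

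Because the deposited values are TPM, sequencing depth is unknown here and error comes only from the spread between libraries. In the 6 libraries 11781 to 11957 genes reached 1 TPM, transcripts of the mitochondrial genome took 27.6% to 31.3% of all TPM, and all 12 skeletal myofibre markers passed the filter. The libraries of a group are numbered, and the labels say that tissue was taken from each mouse. P-values measure the spread between these libraries. Before the results, 1 feature of the libraries has to be given: replicate 3 tended to lie between the other 2. Over 3340 genes with a mean of at least 20 TPM, replicate 3 held the middle value for 43.6% of genes in the vehicle group, 50.9% in the weekly group and 58.6% in the daily group. Whether replicate 3 came from a separate mouse cannot be settled from these values, and if it did not, n = 3 overstates the number of independent samples and the SDs and p-values are too small. Counts of called genes, and of the larger lists, are therefore also given without replicate 3 of every group.

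The weekly regimen changed few genes past the threshold. Of 12246 genes, 6 (0.0490%) were called, that is, had a Benjamini-Hochberg adjusted p under 0.05 in limma on log2 of TPM plus 1. The 4 higher genes (0.0327%) were Nfil3, Trim63, Cyp26b1 and the pseudogene Rps13-ps1. The 2 lower genes (0.0163%) were Mafa and Irgm2. Rps13-ps1 passed the level filter only through the weekly libraries, and Cyp26b1 would not have passed it without them. Their entry into the test thus depended on the weekly values. Without replicate 3 of every group limma called 0 genes, and 810 had an unadjusted p under 0.05, 1.09% of all genes higher and 5.53% lower.

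**Figure D1:**
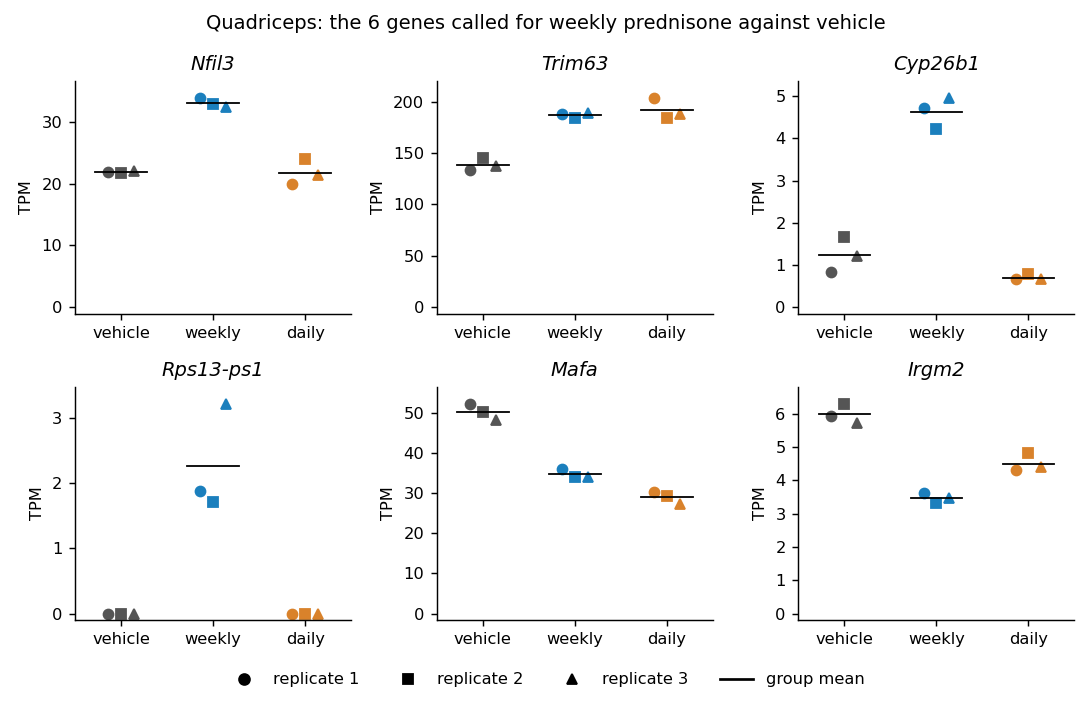
TPM of the 6 called genes in each quadriceps library of the vehicle, weekly and daily groups (3 libraries each; symbols mark the replicate, lines the group mean, left out where a library is listed at 0 or near it). The weekly values of Nfil3, Trim63, Cyp26b1 and Rps13-ps1 all lie above the vehicle values, and those of Mafa and Irgm2 all lie below them.

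Below the threshold the distribution leaned to lower values. The log2 fold change was negative for 8630 genes (70.5%), its median was -0.07, and the middle 90% of genes lay between -0.32 and 0.20. At an unadjusted p under 0.05 there were 1891 genes (15.4%), of which 257 (2.10%) were higher and 1634 (13.3%) lower after weekly prednisone. That lean depended on scaling. With TMM scaling, which matches libraries on the bulk of their genes, 566 genes (4.62%) were higher and 699 (5.71%) lower and the median was -0.01, so the lower share went from 86.4% to 55.3%. With quantile normalization it was 48.4%. Weekly and vehicle values did not overlap for 2821 genes (23.0%), with 459 (3.75%) above and 2362 (19.3%) below vehicle.

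**Figure D2:**
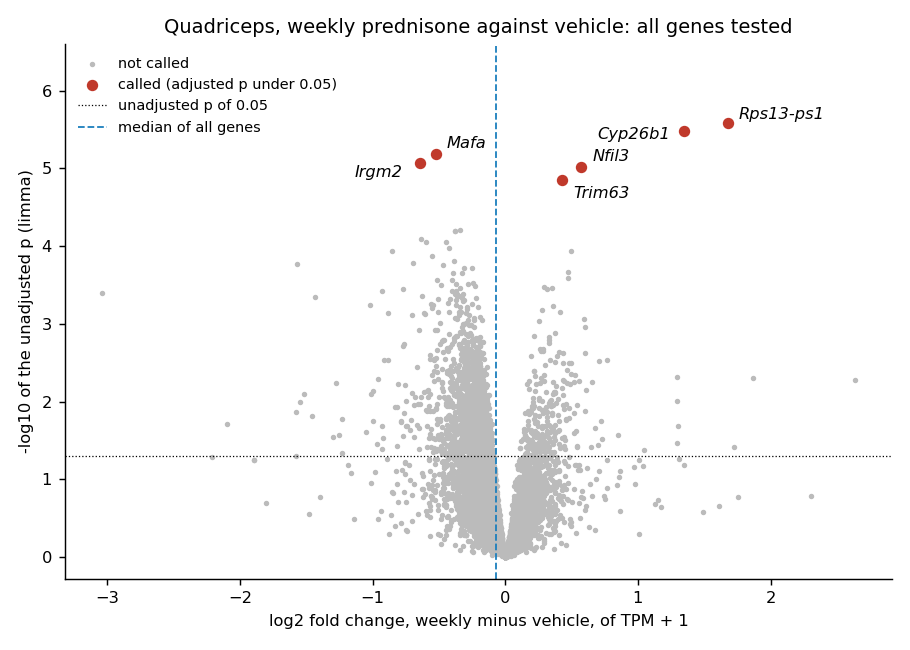
Log2 fold change (weekly minus vehicle, of TPM plus 1) against -log10 of the unadjusted limma p for the 12246 genes, with the 6 called genes named, the median of all genes as a dashed line and an unadjusted p of 0.05 as a dotted line. Most genes with a small p lie left of 0, and the 6 called genes stand above the rest.

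The receptor and its best-known targets were examined first. Nr3c1, the glucocorticoid receptor itself, was at 15.8, 15.9 and 16.5 TPM in vehicle and 16.5, 14.8 and 17.3 TPM in weekly quadriceps. The groups overlapped, and the log2 fold change was 0.01 (95% interval of limma -0.15 to 0.18). Tsc22d3 (GILZ), a glucocorticoid-induced leucine zipper protein, was at 111.6, 122.8 and 112.6 TPM in vehicle and 108.8, 107.4 and 104.4 TPM in weekly muscle, a log2 fold change of -0.11 (-0.24 to 0.01). These groups did not overlap, by a small margin. Per1, a clock gene with a glucocorticoid response element, had a log2 fold change of -0.15 (-0.55 to 0.25). Klf9, a Krüppel-like factor induced by glucocorticoids, had one of -0.01 (-0.19 to 0.18).

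Fkbp5, the receptor co-chaperone that limits hormone binding, had the smallest p among 28 listed glucocorticoid receptor targets. It was at 7.10, 7.29 and 7.12 TPM in vehicle and 10.4, 12.4 and 11.3 TPM in weekly quadriceps. Every weekly library was above every vehicle library, and the log2 fold change of 0.59 ± 0.12 (SE) had an adjusted p of 0.123 in limma, so Fkbp5 was not called. In daily quadriceps Fkbp5 was at 8.92, 13.1 and 9.87 TPM, and the weekly minus daily difference was 0.10 (adjusted p = 0.741). Klf15, a regulator of amino acid breakdown in muscle, was at 12.99 ± 1.48 TPM (SD, n = 3) in vehicle and 16.6 ± 1.94 TPM in weekly muscle, with an adjusted limma p of 0.261. Zbtb16 (PLZF), another classical target, was at 7.45, 8.16 and 7.84 TPM in vehicle and 14.3, 8.51 and 11.8 TPM in weekly muscle. Its spread came from the weekly libraries, of which replicate 2 was close to vehicle, and the adjusted limma p was 0.215.

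No glucocorticoid receptor target was called. At an unadjusted p under 0.05, 5 of the 28 were higher (2.10% of all genes) and 1 was lower (13.3% of all genes). The 5 were Fkbp5, Zbtb16, Klf15, Mthfd2, which is a mitochondrial folate enzyme, and Cdkn1a, a cell cycle inhibitor. Cdkn1a and the lower gene, Bcl6, were picked once their values were known. The list's median log2 fold change was -0.02 beside -0.07 for all genes, and with TMM scaling 0.05 beside -0.01. With TMM scaling 5 members were higher and 0 lower at an unadjusted p under 0.05. Without replicate 3 of every group 1 member was higher and 0 lower at that p. Of 14 receptor chaperones and steroid-activating enzymes 1 was higher, Fkbp5, and 1 lower, Hsp90ab1, the constitutive HSP90 that holds the receptor, at a log2 fold change of -0.15. Hsp90ab1 was named after its value was seen. With TMM scaling 1 of the 14 was higher and 0 lower.

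Trim63, the muscle RING-finger ligase that targets myosin and other sarcomeric proteins, rose. It was at 133.0, 145.0 and 137.4 TPM in vehicle and 187.9, 184.3 and 188.4 TPM in weekly quadriceps. The lowest weekly library was well above the highest vehicle library. The mean went from 138.5 ± 6.05 to 186.9 ± 2.26 TPM (SD, n = 3), 34.9% higher, with a log2 fold change of 0.43 ± 0.05 (SE) and an adjusted p of 0.0287 in limma. One transcript, ENSMUST00000105875.7, carried 99.1% of the vehicle TPM and 98.8% of the weekly TPM of the gene. Daily quadriceps reached a similar level, 203.6, 183.5 and 187.8 TPM, and the weekly minus daily difference was -0.03 ± 0.05 (adjusted p = 0.787). Over 18 alternative settings Trim63 kept its direction and was called in 8, with adjusted p from 0.0109 to 0.558. With any 1 of the 6 libraries left out the adjusted p was 0.0757 to 0.205, so the call was lost each time.

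Trim63 lies at chr4:134315120-134329629 on the plus strand (GRCm38). Its RefSeq promoter window, 250 bases before to 50 bases after the start site at chr4:134314870-134315169 (GRCm38.p6), is shown because it holds the letters of a glucocorticoid response element, with a FoxO site close beside it, both in capitals.
Trim63: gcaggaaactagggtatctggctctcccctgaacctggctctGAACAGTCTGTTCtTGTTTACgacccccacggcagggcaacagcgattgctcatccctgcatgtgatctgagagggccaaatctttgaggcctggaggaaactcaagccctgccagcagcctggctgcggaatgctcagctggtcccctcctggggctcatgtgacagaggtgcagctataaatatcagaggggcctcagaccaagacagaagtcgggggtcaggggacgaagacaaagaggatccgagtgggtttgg
The response element was searched as GNACA and TGTNC with 3 bases between them, which reads the same on both strands, and matched from -208 to -196 relative to the start site. The FoxO site was searched as TGTTTAC on both strands and matched from -194 to -188. The first pattern occurs in 0.475% of 32851 RefSeq promoter windows (156 windows) and the second in 3.65%. Of the 28 glucocorticoid receptor targets, 25 had a window, and the response element pattern was found in 3, Sgk1, Mt1 and Map3k6.

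Fbxo32, the other classical atrophy ligase, was at 35.6, 57.4 and 44.2 TPM in vehicle and 60.3, 59.6 and 59.3 TPM in weekly quadriceps. The weekly libraries were close together and above all vehicle libraries, but vehicle replicate 2 came near them, and the log2 fold change of 0.41 ± 0.15 had an adjusted limma p of 0.258. Foxo1 and Foxo3, transcription factors that drive these ligases, had log2 fold changes of -0.13 (95% interval -0.32 to 0.06) and -0.09 (-0.27 to 0.09). Mstn (myostatin), a secreted inhibitor of muscle growth, had one of 0.03 (-0.26 to 0.32). In the list of 22 atrophy ligases and FoxO factors 1 gene was called higher, Trim63. Over all genes 2.10% were higher and 13.3% lower at an unadjusted p under 0.05 (TMM 4.62% and 5.71%). Of the list 2 were higher and 5 lower (TMM 2 and 3). Among the lower ones Cblb, a ligase acting on IRS1, went from 3.83 to 2.84 TPM and Fbxo21, an F-box protein, from 8.66 to 7.26 TPM in the group means (adjusted p = 0.162 and 0.179 in limma).

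Of 31 proteasome subunits 0 were called by limma. At an unadjusted p under 0.05 0 were higher and 12 lower, beside 2.10% and 13.3% of all genes, with a median of -0.10 beside -0.07. With TMM scaling 0 were higher and 4 lower, beside 4.62% and 5.71% of all genes, with a median of -0.03 beside -0.01. Without replicate 3 of every group 0 were higher and 4 lower. Psmb5, a catalytic subunit, was at 109.4, 108.3 and 99.1 TPM in vehicle and 88.2, 90.8 and 82.2 TPM in weekly muscle. The groups did not overlap, and the adjusted limma p was 0.116. Of 19 autophagy genes 0 were called, with 0 higher and 2 lower at an unadjusted p under 0.05 (TMM 0 and 0). Those 2 were Tfeb, the transcription factor of lysosomal genes, and Map1lc3a, an LC3 protein of the autophagosome membrane, with log2 fold changes of -0.20 for both.

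Nfil3 (E4BP4), a bZIP repressor that competes at D-box sites with the clock output activators Dbp, Tef and Hlf, rose. It was at 21.9, 21.7 and 22.0 TPM in vehicle and 33.8, 32.9 and 32.4 TPM in weekly quadriceps. No vehicle library came near a weekly one. The mean went from 21.9 ± 0.156 to 33.1 ± 0.725 TPM (SD, n = 3), 51.1% higher, with a log2 fold change of 0.57 ± 0.07 and an adjusted p of 0.0234 in limma. Daily quadriceps was at 19.9, 23.9 and 21.4 TPM, around the vehicle level, and the weekly minus daily difference of 0.59 ± 0.07 passed the test (adjusted p = 0.00354). The table lists 1 expressed transcript for Nfil3, so no other isoform enters the sum. Nfil3 kept its direction in 18 alternative settings and was called in 8, with adjusted p from 0.0175 to 0.546, and with any 1 of the 6 libraries left out it was 0.0725 to 0.176.

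Nfil3 lies at chr13:52967209-52981073 on the minus strand. Its RefSeq promoter window (chr13:52980990-52981289, GRCm38.p6) is shown beside that of Trim63 because, of the 7 patterns searched, it held none, the response element included.
Nfil3: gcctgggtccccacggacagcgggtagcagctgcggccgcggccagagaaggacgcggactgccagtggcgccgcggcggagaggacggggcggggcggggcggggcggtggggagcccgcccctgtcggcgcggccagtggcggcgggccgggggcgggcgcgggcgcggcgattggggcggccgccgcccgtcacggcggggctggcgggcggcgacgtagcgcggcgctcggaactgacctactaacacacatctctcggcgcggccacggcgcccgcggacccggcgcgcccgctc
The other patterns were the interferon-stimulated response element, a gamma-activated site (TTCNNNGAA), a Maf half-site (TGCTGAC), a D-box (TTATGNAA) and the retinoic acid response element (AGGTCA repeated after 5 bases), each on both strands. The Irgm2 window (chr11:58214727-58215026) held the interferon-stimulated response element from -64 to -55 and the gamma-activated site from -75 to -67. The annotated Irgm2 gene starts upstream of that window, at chr11:58199618, and where its main transcript starts was not examined. The Cyp26b1 window held none of the 7 patterns. The 5 other patterns occur in 3.44%, 8.30%, 4.67%, 3.38% and 0.00913% of all windows.

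The activators that share sites with Nfil3 were not called. Dbp, a PAR bZIP activator, was at 49.5, 40.8 and 42.6 TPM in vehicle and 28.5, 47.8 and 39.5 TPM in weekly muscle, with overlapping groups. Tef was at 89.3 ± 1.70 TPM in vehicle and 79.9 ± 5.48 TPM in weekly muscle (adjusted p = 0.274 in limma). Hlf had a log2 fold change of -0.10 (95% interval -0.33 to 0.13). Of the 4 genes in the clock output list, Nfil3 and the PAR bZIP genes Dbp, Tef and Hlf, 1 was called higher, Nfil3. At an unadjusted p under 0.05 1 was higher and 1, Tef, lower, beside 2.10% and 13.3% of all genes. With TMM scaling 1 was higher and 0 lower, beside 4.62% and 5.71% of all genes. Of the 14 core clock genes tested 0 were called, with 0 higher and 2 lower at an unadjusted p under 0.05 (TMM 2 and 2). The 2 lower as deposited were the repressors Cry2 and Per3, with log2 fold changes of -0.28 and -0.33. Arntl (BMAL1), the positive factor of the clock, had a log2 fold change of 0.26 (-0.02 to 0.54) and Nr1d1 (REV-ERBα), a repressor of Arntl, one of 0.04 (-0.32 to 0.39).

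Mafa, a large Maf transcription factor best known from pancreatic beta cells and, in muscle, linked with the fast type 2B fibre program, fell. It was at 52.2, 50.3 and 48.2 TPM in vehicle and 36.1, 34.0 and 34.1 TPM in weekly quadriceps. All weekly libraries were below all vehicle libraries by a margin larger than the spread within either group. The mean went from 50.3 ± 2.01 to 34.7 ± 1.21 TPM (SD, n = 3), with a log2 fold change of -0.52 ± 0.06 and an adjusted p of 0.0234 in limma. Daily quadriceps was at 30.3, 29.3 and 27.3 TPM, and the weekly minus daily difference was 0.26 ± 0.06 (adjusted p = 0.0631). The gene has 1 transcript in the table and lies at chr15:75745490-75748228 on the minus strand. Mafa kept its direction in 18 alternative settings and was called in 8, with adjusted p from 0.0143 to 0.546, and with any 1 of the 6 libraries left out it was 0.0551 to 0.176.

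Maf, a relative of Mafa, was not called and had a log2 fold change of -0.10 (95% interval -0.24 to 0.04). Of 23 tested Maf and fibre type factors 1 was called, Mafa. At an unadjusted p under 0.05 1 was higher and 3 lower, beside 2.10% and 13.3% of all genes. With TMM scaling 2 were higher and 3 lower, beside 4.62% and 5.71% of all genes. Vgll2, a TEAD cofactor of muscle, was at 60.0, 73.7 and 57.5 TPM in vehicle and 52.6, 51.7 and 48.3 TPM in weekly muscle (adjusted p = 0.180 in limma).

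Myosin heavy chains, which define the fibre types, differed little. Myh4 (type 2B) was at 5786 ± 573 TPM in vehicle and 5527 ± 269 TPM in weekly quadriceps, a log2 fold change of -0.06 (95% interval -0.25 to 0.12). Myh1 (type 2X) had a log2 fold change of -0.03 (-0.23 to 0.16) and Myh2 (type 2A) one of 0.11 (-0.18 to 0.41). Of 16 fast fibre genes 0 were called and 4 were lower at an unadjusted p under 0.05, beside 13.3% of all genes. Among them was Actn3, the fast-fibre actinin, with a log2 fold change of -0.23 (with TMM scaling 0 of the 16 were lower). Of 11 tested slow fibre genes 0 were called. At the same p 0 were higher and 1 lower (TMM 1 and 1), beside 2.10% and 13.3% of all genes. The lower one as deposited was Tnni1, slow troponin I, at 1.52 to 1.78 TPM in weekly and 1.99 to 3.29 TPM in vehicle muscle.

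Cyp26b1, a cytochrome P450 that clears retinoic acid, rose by the largest factor among called genes detected in every vehicle library. It was at 0.835, 1.67 and 1.21 TPM in vehicle and 4.72, 4.21 and 4.96 TPM in weekly quadriceps. The lowest weekly value was above the highest vehicle value, at a level near the filter in vehicle muscle. The mean was 3.74 times as high, 4.63 ± 0.380 against 1.24 ± 0.420 TPM (SD, n = 3), and the log2 fold change on the TPM plus 1 scale, which understates changes at low levels, was 1.34 ± 0.14 (adjusted p = 0.0205 in limma). Daily quadriceps was at 0.666, 0.784 and 0.669 TPM, below the vehicle libraries. The weekly minus daily difference was 1.72 ± 0.14 (adjusted p = 0.000486). Transcripts ENSMUST00000204146.2 and ENSMUST00000205228.2 carried 42.0% and 58.0% of the weekly TPM, and neither was called as a transcript on its own (adjusted p = 0.194 and 0.105 in limma). Cyp26b1 lies at chr6:84571414-84593908 on the minus strand. It kept its direction in 17 alternative settings and was called in 8, with adjusted p from 0.00954 to 0.546. With 1 of the 6 libraries left out, the call held only without vehicle replicate 2, and the range was 0.0182 to 0.176.

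Other genes of retinoid handling were not called. Of 17 tested members of that list 1 was called. At an unadjusted p under 0.05 2 were higher and 2 lower, beside 2.10% and 13.3% of all genes. The other higher member was Rbp7, a cellular retinol-binding protein found in endothelium and fat. It was at 42.0, 31.7 and 42.6 TPM in vehicle and 58.3, 48.3 and 50.9 TPM in weekly quadriceps, without overlap (adjusted p = 0.177 in limma). Rxra, a retinoid X receptor, had a log2 fold change of -0.13. With TMM scaling 2 members were higher and 0 lower, beside 4.62% and 5.71% of all genes.

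Irgm2, an interferon-inducible GTPase of the IRG family that guards membranes against intracellular pathogens, fell. It was at 5.92, 6.29 and 5.72 TPM in vehicle and 3.61, 3.32 and 3.45 TPM in weekly quadriceps, with no overlap. The mean went from 5.98 ± 0.287 to 3.46 ± 0.142 TPM (SD, n = 3), a log2 fold change of -0.65 ± 0.07 (adjusted p = 0.0234 in limma). Daily quadriceps lay between, at 4.30, 4.81 and 4.39 TPM, and the weekly minus daily difference was -0.30 ± 0.07 (adjusted p = 0.0786). Transcript ENSMUST00000058704.8 carried 90.6% of the vehicle and 72.3% of the weekly TPM. Irgm2 lies at chr11:58199618-58222782 on the plus strand. It kept its direction in 18 alternative settings and was called in 5, with adjusted p from 0.0251 to 0.546, and with any 1 of the 6 libraries left out it was 0.0671 to 0.176. Genes of this family are related in sequence, so the division of reads among them is uncertain.

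The family did not move in one direction. Of 15 tested interferon-inducible GTPases 1 was called. At an unadjusted p under 0.05 1 was higher and 3 lower (TMM 1 and 2). Over all genes the shares at that p were 2.10% higher and 13.3% lower. Igtp (Irgm3) was at 9.19, 11.2 and 8.81 TPM in vehicle and 7.24, 5.83 and 7.33 TPM in weekly muscle (log2 fold change -0.46 ± 0.10, adjusted p = 0.155 in limma). Irgm1, the third member of the regulatory group, was at 9.13, 8.74 and 9.58 TPM in vehicle and 11.8, 10.8 and 10.9 TPM in weekly muscle, a difference of the opposite sign (0.26 ± 0.06, adjusted p = 0.159). Of 30 other interferon response genes 0 were called. At an unadjusted p under 0.05 5 were higher and 1 lower, with a median of 0.05. The higher ones included Oasl2, Xaf1 and Bst2, interferon-induced antiviral genes, at adjusted limma p from 0.179 to 0.227. All weekly values were above all vehicle values for 6 members and below them for 4 (3.75% and 19.3% of all genes). The summed TPM of the list was 723.8 to 764.7 in vehicle and 663.5 to 692.8 in weekly muscle, which do not overlap.

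Rps13-ps1 is a processed pseudogene of the ribosomal protein gene Rps13, at chr8:87047689-87048226. It was listed at 0 in all 3 vehicle libraries and at or next to 0 in daily quadriceps, and at 1.87, 1.70 and 3.21 TPM in weekly quadriceps. Its sequence is 96.8% identical to Rps13 over 538 bases, with a longest shared stretch of 436 bases, so reads of the 2 genes can be split between them by the authors' quantification and the value is uncertain. The parent, Rps13, was at 531.5, 418.2 and 481.6 TPM in vehicle and 422.6, 379.2 and 382.2 TPM in weekly muscle. No fold is given against values listed at 0. The adjusted limma p was 0.0205, and 0.0276 to 0.125 with 1 of the 6 libraries left out, where the call held only without weekly replicate 3.

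A fit of 24128 single transcripts in place of summed genes gave 6 called transcripts, none of which belongs to the 6 called genes. They were transcripts of Rab6a, Cat, Hmox2, Dctn3, Vim and 2310022A10Rik, named after their values were seen. Transcript ENSMUST00000107048.7 of Rab6a, a Golgi small GTPase, was at 0 to 0.000158 TPM in vehicle and at 5.39, 5.21 and 5.91 TPM in weekly muscle. The summed gene Rab6a had a log2 fold change of -0.01. Transcript ENSMUST00000111168.3 of Cat (catalase) was at 10.4, 5.82 and 8.15 TPM in vehicle and listed at 0 in all weekly libraries, while the gene had a log2 fold change of -0.10. These are estimated shares of reads among overlapping transcripts of a gene.

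Among genes not called, the 10 with the smallest p in each direction (no overlap, mean of at least 5 TPM) were examined. The higher ones were Slc38a3, Scd2, Pde7a, Dmtf1, Kcnj2, Ccl11, Luc7l3, Prkcd, Fkbp5 and Slc9a3r2, with adjusted limma p from 0.0954 to 0.124. Slc38a3 (SNAT3), a glutamine transporter, was at 10.1, 10.8 and 10.03 TPM in vehicle and 15.3, 14.6 and 14.9 TPM in weekly quadriceps. It was called higher with TMM scaling and with quantile normalization, and against daily muscle (11.1 ± 1.25 TPM) the difference of 0.40 ± 0.08 passed (adjusted p = 0.0415). Scd2, a stearoyl-CoA desaturase that makes monounsaturated fatty acids, was at 20.7 ± 1.94 TPM in vehicle and 29.0 ± 1.98 TPM in weekly muscle. Kcnj2, the inward rectifier that sets the resting potential of muscle, was at 14.1 ± 0.569 and 17.8 ± 0.362 TPM. Ccl11 (eotaxin), a chemokine for eosinophils, was at 26.4 ± 2.36 and 34.1 ± 1.02 TPM, and at 26.2 ± 1.37 TPM in daily muscle (weekly minus daily 0.37, adjusted p = 0.0415). Pde7a, a cyclic AMP phosphodiesterase, was at 21.6 ± 0.321 and 26.7 ± 0.680 TPM and was called with TMM scaling and quantile normalization.

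The lower ones were Fmc1, Eepd1, Trp53i13, P2ry2, Sh3rf2, Ndufa2, Tmem203, Gmpr, Htra1 and Dyrk1b, with adjusted p from 0.0879 to 0.109. Fmc1, an assembly factor of the mitochondrial ATP synthase, was at 176.1, 169.1 and 159.5 TPM in vehicle and 138.3, 130.2 and 128.6 TPM in weekly quadriceps. Eepd1, which acts in cholesterol efflux and DNA repair, was at 76.4, 78.2 and 71.7 TPM in vehicle and 51.8, 47.7 and 49.2 TPM in weekly muscle. It was called when only the vehicle and weekly libraries were fitted. Sh3rf2, a scaffold protein of JNK signalling, was at 7.79 ± 0.989 TPM in vehicle and 3.85 ± 0.414 TPM in weekly muscle, the largest ratio of the 10. Ndufa2, a subunit of respiratory complex I, was at 530.9 ± 38.0 and 405.8 ± 14.6 TPM. P2ry2, a receptor for extracellular ATP and UTP, was at 20.1 ± 0.848 and 14.7 ± 1.03 TPM.

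Protein synthesis and energy metabolism were followed with gene lists, and no member of these lists was called by limma. Cytosolic ribosomal proteins had the lowest median among the lists of 30 or more members: of 80, 1 was higher and 35 lower at an unadjusted p under 0.05, with a median of -0.14 beside -0.07 for all genes. With TMM scaling the counts were 3 and 19 and the median -0.07 beside -0.01, and without replicate 3 of every group they were 0 and 14. Of 38 mitochondrial ribosomal proteins 1 was higher and 11 lower, with a median of -0.09. With TMM scaling 1 was higher and 2 lower, with a median of -0.02. Of 32 translation factors 0 were higher and 12 lower (TMM 1 and 4, without replicate 3 of every group 0 and 4). Among the lower ones was Eef2, the elongation factor, with a log2 fold change of -0.18. Over all genes the shares were 2.10% higher and 13.3% lower, and with TMM scaling 4.62% and 5.71%.

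Nuclear genes of the respiratory chain and genes of the mitochondrial genome differed in sign. Of 77 nuclear respiratory chain and ATP synthase genes, 2 were higher and 36 lower at an unadjusted p under 0.05. Over all genes the shares were 2.10% and 13.3%, and the median of the list was -0.09. With TMM scaling these counts were 3 and 8 and the median -0.02 beside -0.01 for all genes, and without replicate 3 of every group the counts were 2 and 15. Atp5a1, the alpha subunit of ATP synthase, was at 1122, 1110 and 1101 TPM in vehicle and 990.0, 908.7 and 950.4 TPM in weekly quadriceps. Of 13 mitochondrial genome transcripts 5 were higher and 2 lower, with a median of 0.09 (TMM 0.16, quantile normalization 0.02). The 2 lower ones, mt-Nd3, a complex I subunit, and mt-Co2, a complex IV subunit, were likewise picked with their values known. The summed TPM of the 13 was 276245 to 313092 in vehicle and 290520 to 311883 in weekly muscle, which overlap.

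Fuel metabolism lists as deposited differed in how many members were lower, beside 13.3% of all genes. With TMM scaling, beside 5.71% of all genes, each list had 0 to 2 lower members. All 20 tricarboxylic acid cycle genes had a negative log2 fold change, 8 were lower at an unadjusted p under 0.05 and the median was -0.10, while with TMM scaling, and without replicate 3 of every group, 0 were lower. Of 18 glycolytic genes 0 were higher and 7 lower (TMM 0 and 1, without replicate 3 0 and 2), with a median of -0.13, among them Aldoa, the muscle aldolase, with a log2 fold change of -0.19. Of 28 genes of fatty acid uptake and oxidation 1 was higher and 2 lower (TMM 3 and 0), with a median of -0.07. Of 23 genes that degrade branched-chain amino acids 0 were higher and 6 lower (TMM 0 and 2). Gys1, muscle glycogen synthase, was at 135.9, 160.3 and 139.9 TPM in vehicle and 120.8, 111.9 and 110.3 TPM in weekly muscle (adjusted p = 0.114 in limma). Of 16 glycogen genes 0 were higher and 4 lower (TMM 0 and 1). Of 13 genes of the pyruvate dehydrogenase complex and its kinases 0 were higher and 4 lower (TMM 0 and 1), with a median of -0.09. Pdk4, a kinase that shuts the complex and a classical glucocorticoid target, had a log2 fold change of 0.01 (95% interval -0.41 to 0.44).

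Of 21 insulin signalling and glucose transport genes 0 were higher and 5 lower at an unadjusted p under 0.05, beside 2.10% and 13.3% of all genes, with a median of -0.11 beside -0.07. With TMM scaling 1 was higher and 3 were lower, with a median of -0.05 beside -0.01, and without replicate 3 of every group 0 and 2. Irs1, the insulin receptor substrate, was at 6.46, 7.19 and 6.61 TPM in vehicle and 3.996, 3.89 and 3.76 TPM in weekly quadriceps. The groups did not overlap, but the log2 fold change of -0.67 ± 0.17 had an adjusted p of 0.170 in limma, and Irs1 was called when only the 2 groups were fitted. Tbc1d1, a Rab GTPase activator that restrains glucose transporter traffic, was at 20.2, 31.0 and 21.8 TPM in vehicle and 15.5, 14.1 and 15.1 TPM in weekly muscle. Slc2a4 (GLUT4), the insulin-regulated glucose transporter, was at 269.1 ± 2.90 and 232.4 ± 19.1 TPM (adjusted p = 0.196). Adipor1, an adiponectin receptor, was at 111.5 ± 3.55 and 98.6 ± 4.49 TPM (adjusted p = 0.204). Nampt, the rate-limiting enzyme of NAD salvage, had a log2 fold change of 0.04 (95% interval -0.14 to 0.21) and Ppargc1a (PGC-1α), a regulator of mitochondrial biogenesis, one of -0.14 (-0.34 to 0.06). At an unadjusted p under 0.05 the 16 adiponectin receptor and AMPK genes had 0 higher and 3 lower (TMM 0 and 1). The 16 PGC-1, ERR and PPAR regulators had 0 and 2 (TMM 1 and 0), and the 11 NAD synthesis genes 1 and 2 (TMM 1 and 0). The 24 calcium handling genes had 0 higher and 8 lower, beside 2.10% and 13.3% of all genes, among them Cacnb1, a subunit of the voltage-gated calcium channel of muscle, with a log2 fold change of -0.28, and with TMM scaling 2 higher and 4 lower, beside 4.62% and 5.71%.

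**Figure D3:**
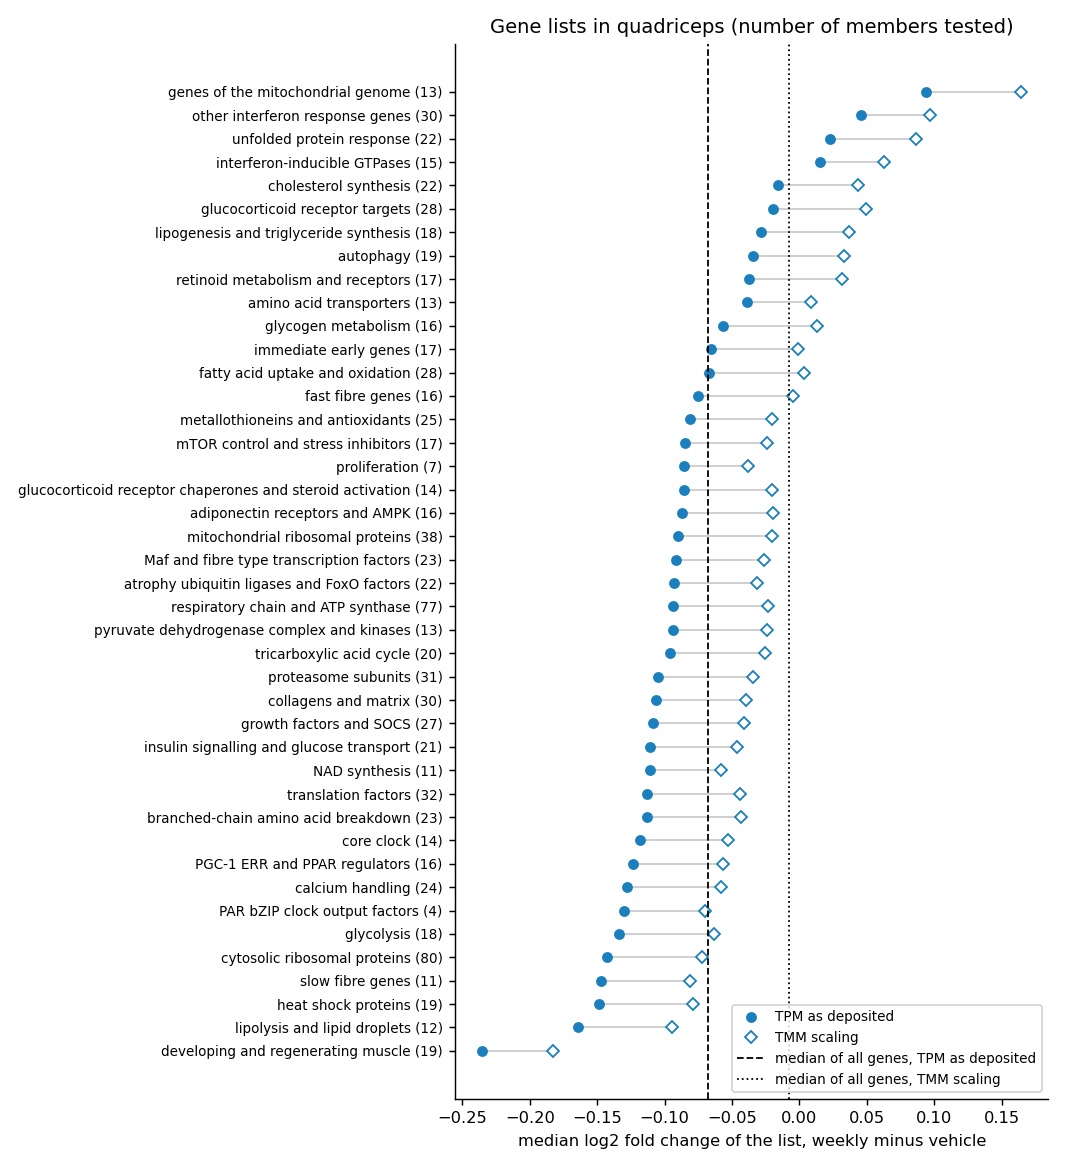
Median log2 fold change (weekly minus vehicle) of each of 42 gene lists, with the number of members tested in brackets, for TPM as deposited (filled circles) and after TMM scaling (open diamonds), with the medians of all genes as dashed and dotted lines. Of the 42 medians 38 are below 0 as deposited and 30 with TMM scaling, and developing and regenerating muscle lies lowest and the mitochondrial genome highest under both.

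Markers of other cell types were followed as summed TPM. In bulk tissue, fewer cells of a type and less RNA per cell cannot be told apart. Of 14 macrophage, 11 endothelial, 11 fibro-adipogenic progenitor, 11 adipocyte, 8 smooth muscle, 6 Schwann cell, 6 tendon and 5 red blood cell markers tested, 0 were called by limma and 0 had an unadjusted p under 0.05. That count is for TPM as deposited. With TMM scaling 1 endothelial, 2 fibro-adipogenic progenitor, 1 smooth muscle and 1 red blood cell marker were higher at that p, and 0 of these markers lower. Summed adipocyte markers were 2207 to 2836 TPM in vehicle and 1897 to 2391 TPM in weekly muscle. Summed macrophage markers were 256.3 to 372.6 and 268.6 to 275.6 TPM, and summed red blood cell markers 1755 to 1972 and 1469 to 3320 TPM. Of 9 lymphocyte markers 8 were below the filter, and 0 of the 9 were listed at 0 in all 6 libraries. Of 12 myofibre markers 0 were higher and 7 lower at an unadjusted p under 0.05 (TMM 0 and 4). Over all genes the shares were 2.10% and 13.3% (TMM 4.62% and 5.71%). Summed myofibre markers were 84945 to 93253 TPM in vehicle and 79267 to 84590 TPM in weekly muscle, which do not overlap. Of 5 satellite cell markers 0 were higher and 2 lower, Itga7, an integrin, and Des, desmin, and with TMM scaling 0 were lower. Des, at 1060 to 1100 TPM in vehicle and 956.3 to 984.0 TPM in weekly muscle, makes up most of their sum and is also a myofibre marker. The part of these sums in the gene results was not tested.

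White adipose tissue of the same mice, in other libraries, gave a second reading of the genes named in muscle. There 7.43% of 14150 genes were called for weekly prednisone as deposited and 7.89% with TMM scaling. The 1052 calls became 1 without replicate 3 of every group, 64 without vehicle replicate 3, 66 without weekly replicate 3, 360 to 405 without vehicle replicate 1 or 2 or weekly replicate 1, and 1240 without weekly replicate 2. Adipose weekly replicates 2 and 3 held muscle transcripts: their summed myofibre markers were 1.34% and 0.999% of the mean muscle level against 0.172% to 0.263% in the other 4 libraries, and their part in the adipose values was not tested. Nfil3 was at 21.4, 23.4 and 22.0 TPM in vehicle and 28.7, 28.2 and 28.8 TPM in weekly adipose tissue, with a log2 fold change of 0.35 ± 0.07 (adjusted p = 0.0276). That call was lost with TMM scaling (adjusted p = 0.127), with quantile normalization (0.119), without replicate 3 of every group (0.349), and in 4 of 6 cases with 1 adipose library left out (vehicle replicate 1 or 3, weekly replicate 1 or 3; range over the 6 cases 0.0409 to 0.0963). The difference between tissues was 0.23 (adjusted p = 0.138). Cyp26b1 was at 0.636 TPM in vehicle and 1.43 TPM in weekly adipose tissue in the group means, with a log2 fold change of 0.57 ± 0.19 (adjusted p = 0.0865). Trim63 and Mafa did not pass the filter in adipose tissue. The weekly effect differed between the tissues for 326 of 11737 genes (2.78%), 0.0596% higher and 2.72% lower in muscle, and Cyp26b1 and Irgm2 were among them. These calls ended under several other settings: 0 genes were called with TMM scaling, with only the groups compared or with the replicate block, and 1 with quantile normalization or without replicate 3 of every group.

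Of the 10 uncalled higher genes 9 were tested in adipose tissue, and 6 of them were called higher there (5.72% of all adipose genes): Scd2, Kcnj2, Ccl11, Prkcd, Fkbp5 and Slc9a3r2. Fkbp5 had a log2 fold change of 0.45 ± 0.09 (adjusted p = 0.0232) and Slc9a3r2, a scaffold protein of membrane transporters, one of 0.54 ± 0.10 (adjusted p = 0.0201). The count depended on scaling and on single libraries. With TMM scaling it was 2 (3.24% of all genes), Kcnj2 and Slc9a3r2, without replicate 3 of every group it was 0, and with 1 adipose library left out it was 0 to 7. All 9 were positive under each of these settings, beside 70.3% of all adipose genes as deposited and 50.6% with TMM scaling. Of the 10 uncalled lower genes 9 were tested in adipose tissue and 2 were called lower (1.72% of all genes), Fmc1 and Ndufa2. With TMM scaling the same 2 were called (4.65% of all genes), with quantile normalization 1, Fmc1, and without replicate 3 of every group 0. With 1 adipose library left out 0 or 1 was called, and without vehicle replicate 1 that was Eepd1.

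**Figure D4:**
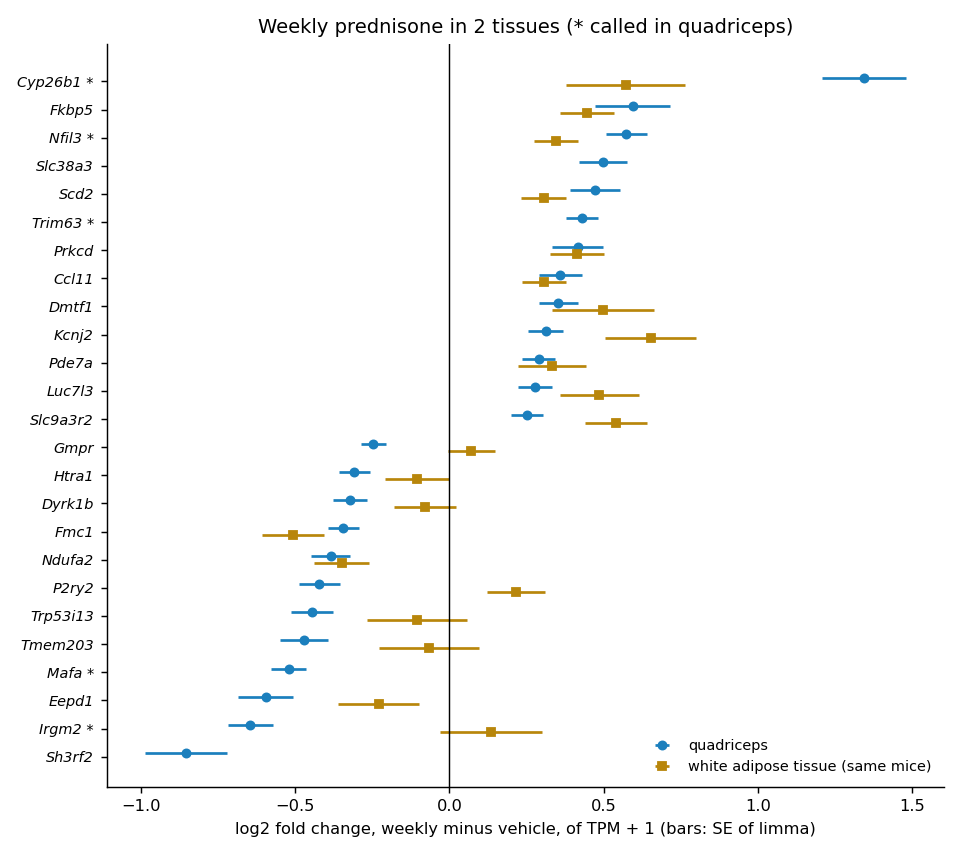
Log2 fold change (weekly minus vehicle, of TPM plus 1) with the SE of limma in quadriceps (circles) and white adipose tissue of the same mice (squares) for 5 of the called genes (starred; Rps13-ps1 is left out) and the 20 uncalled genes named. The higher genes measured in both tissues have positive values in both, and the lower genes are split in adipose tissue, with 2 of 9 on the positive side among the uncalled ones.

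Weekly and daily quadriceps differed in 217 of 12246 genes (1.77%), 112 higher (0.915%) and 105 lower (0.857%) after the weekly regimen, by limma. The balance depended on scaling: with TMM scaling 71 were higher and 133 lower, and with quantile normalization 78 and 128. Without replicate 3 of every group 10 genes were called. Daily prednisone against the same vehicle libraries gave 13.7% of genes called, 1.91% higher and 11.8% lower. Of the 6 genes called for weekly prednisone against vehicle, Nfil3, Cyp26b1 and Rps13-ps1 were also called higher against daily prednisone. The same weekly libraries enter both comparisons, so these calls are not an independent reading. Rps13-ps1 and Cyp26b1 would not have passed the level filter without the weekly libraries, so their entry into this test also depended on them. Developing muscle and slow fibre genes were among those called lower. Of 19 tested developing muscle genes 10 were called in either direction, and of 11 tested slow fibre genes 4, beside 1.77% of all genes. Of 28 genes of fatty acid uptake and oxidation 8 were called in either direction. Myh3, embryonic myosin, was at 0.287, 0.335 and 0.304 TPM in weekly and 29.5, 16.7 and 20.5 TPM in daily quadriceps (-4.11 ± 0.24, adjusted p = 0.000105), beside 0.147, 1.16 and 0.664 TPM in vehicle. It would not have passed the level filter without the daily libraries, so its entry into the test depended on them. Actc1, cardiac actin that is re-expressed in regenerating fibres, was at 6.58, 5.84 and 6.49 TPM in weekly muscle, 11.2, 13.3 and 12.99 TPM in vehicle and 71.4, 39.0 and 51.4 TPM in daily muscle. Tnni1, slow troponin I, was at 33.8, 20.0 and 26.4 TPM in daily muscle (weekly minus daily -3.36 ± 0.18, adjusted p = 0.000105). Tnnc1, the troponin C of slow and cardiac muscle, was at 2.49, 2.40 and 2.51 TPM in weekly and 38.6, 21.1 and 25.7 TPM in daily muscle (-3.04 ± 0.18, adjusted p = 0.000105). Against vehicle the log2 fold change of Actc1 was -0.88 ± 0.18 (adjusted p = 0.116). Of the 19 tested developing muscle genes 0 were higher and 5 lower than vehicle at an unadjusted p under 0.05 (TMM 0 and 3). Their median was -0.24 (TMM -0.18). Over all genes 2.10% were higher and 13.3% lower than vehicle at that p (TMM 4.62% and 5.71%).

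**Figure D5:**
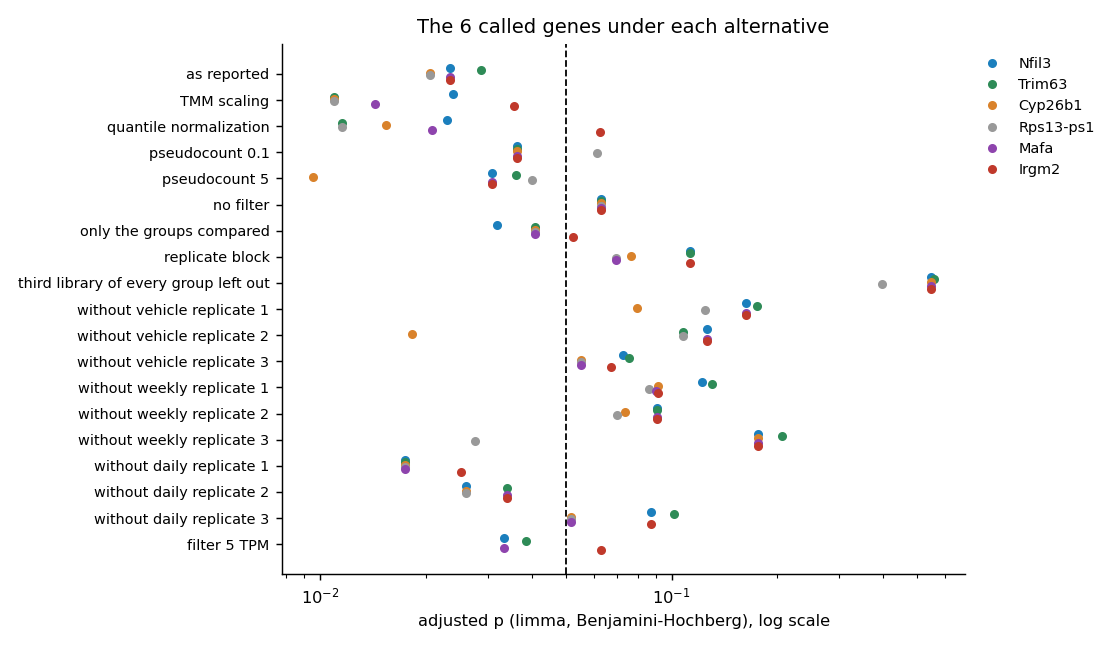
Adjusted p (limma, Benjamini-Hochberg; log axis) of the 6 called genes as reported and under each alternative, with the threshold of 0.05 as a dashed line. All 6 lie left of the line as reported and with TMM scaling, and all 6 lie right of it with no filter, with the replicate block, without replicate 3 of every group, and when vehicle replicates 1 or 3, weekly replicates 1 or 2, or daily replicate 3 are left out.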

How the data were processed

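RNA-seq libraries of quadriceps and white adipose tissue were prepared as stranded mRNA libraries, per the labels' protocols. The authors deposited 1 table of TPM for 105129 transcripts with a gene symbol each. Trimmomatic, HISAT2, kallisto and mm10 are named in the submitters' processing notes, with no version, role or order, and the transcript annotation is not given in the sources used here. TPM is scaled to a fixed sum per library, so a change in abundant transcripts moves all other values.

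TPM was summed per symbol. The level filter was 1 TPM in 3 or more of the 9 quadriceps libraries, and genes were tested as log2 of TPM plus 1 with limma 3.58.1 (R 4.3.3, eBayes with a trend) in a fit of all 9 libraries. Benjamini-Hochberg adjustment ran over all tested genes, with calls at an adjusted p under 0.05. The weekly effect in muscle against adipose tissue was fitted by limma to the difference of the 2 libraries that share a mouse number (11737 genes). The fits were tested on simulated data. Positions are those of GENCODE on GRCm38, and promoter windows those of RefSeq (GRCm38.p6), with 4 of the 6 called genes matched. Python 3.11.15 and matplotlib 3.10.9 made the figures.

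The genes, lists and comparisons were chosen with earlier results of these data known. Named are all called genes, the 10 uncalled genes with the smallest p in each direction (groups not overlapping, mean of at least 5 TPM, no predicted genes, pseudogenes or receptor segments), up to 3 members with the smallest p of each of 42 lists, and a fixed panel. Of 965 places in the lists 964 were found in the table and 938 tested, and of 103 cell type marker places 90. The settings varied were the scaling (TMM, own code, or quantile normalization), the pseudocount (0.1 or 5), the filter (none, or 5 TPM), only the groups compared, a replicate block, transcripts, replicate 3 of every group left out, and each library left out. Settings for the adipose values, the tissue difference of single genes and the list counts with TMM scaling were added after seeing the data. Some named genes are not reported here.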

Additional observations from a re-analysis of the deposited data

Results flagged for a closer look

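For 10 named genes the weekly effect differed between quadriceps and white adipose tissue of the same mice in limma (adjusted p from 0.0302 to 0.0481), out of 326 of 11737 genes (2.78%), of which 319 were lower in muscle relative to adipose tissue. With TMM scaling 0 genes and with quantile normalization 1 gene passed, and none of the 10 passed under either of these or without replicate 3 of every group. The median difference over all genes was -0.19 as deposited and 0.01 with TMM scaling. The muscle minus adipose difference in log2 fold change was 0.77 for Cyp26b1 (with TMM scaling 0.89) and -0.78 for Irgm2 (-0.59). It was -0.64 for the nucleotide receptor P2ry2, -0.57 for the ubiquitin ligase Cblb and -0.58 for the transcription cofactor Eya3. It was -0.75 for the histone deacetylase Hdac4, -1.01 for Tbc1d1 and -1.04 for Irs1, and -0.56 for the calcium-dependent kinase Camk2g and -0.59 for the transcription factor Jun. All 10 differences kept their sign with TMM scaling, with quantile normalization and without replicate 3.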

How the results depend on the processing

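For weekly against vehicle quadriceps limma called 6 genes as reported. The count was 0 with no filter (2488 at an unadjusted p under 0.05), 3 with a filter at 5 TPM, 10 with only the groups compared, and 0 without replicate 3 of every group (810). With the replicate block it was also 0 (1815 at an unadjusted p under 0.05). With 1 quadriceps library left out it ranged from 0 to 11. For weekly against daily the 217 calls became 78 with only the groups compared, 100 with the replicate block, 10 without replicate 3 of every group, 80 for transcripts and 37 to 282 with 1 library left out. The tissue difference of 326 genes became 0 with TMM scaling, 1 with quantile normalization, 177 and 657 with pseudocounts of 0.1 and 5, 27 with no filter, 0 with only the groups compared, 0 with the replicate block, 1 without replicate 3, 0 for transcripts and 0 to 583 with 1 library left out. The cause was not tested, beyond fewer samples or other gene numbers by construction.

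Replicate numbers did not pair vehicle and weekly libraries by the limit set: residuals of the same number correlated at 0.0566, 0.106 and 0.0732, although each vehicle library correlated best with the weekly library of its own number. Among checks of single named genes, 2873 kept their call or its absence, and 62 lost and 11 gained a call. In 5 checks an uncalled gene changed sign by more than its SE. For uncalled genes, changes of sign within the SE were counted as kept, and 0 called genes reversed. TPM gives no depth, so counting error cannot be separated.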

Other observations

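Cholesterol synthesis and the unfolded protein response had no gene called by limma. Over all genes 2.10% were higher and 13.3% lower at an unadjusted p under 0.05 (TMM 4.62% and 5.71%). Of 22 cholesterol synthesis genes 3 were higher and 0 lower at an unadjusted p under 0.05, with a median of -0.02 beside -0.07 for all genes (TMM 5 and 0, 0.04), and 11 of the 22 were negative. Without replicate 3 of every group 2 were higher and 1 lower, with a median of -0.04. Msmo1, a methylsterol oxidase, was at 4.18, 3.91 and 4.57 TPM in vehicle and 5.43, 7.18 and 6.09 TPM in weekly quadriceps, and Idi1, an isomerase of the same pathway, at 5.57, 4.95 and 5.35 and at 6.998, 6.87 and 6.47 TPM. Neither pair of groups overlapped, and the adjusted limma p was 0.172 and 0.193. Of 22 unfolded protein response genes 1 was higher, Hsp90b1, a chaperone of the endoplasmic reticulum, with a log2 fold change of 0.22 ± 0.05. Of the 22, 14 were positive, and with TMM scaling 4 were higher and 0 lower at an unadjusted p under 0.05.

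Counts here are at an unadjusted p under 0.05, beside 2.10% higher and 13.3% lower of all genes (TMM 4.62% and 5.71%). Lipid genes differed among themselves. Of 18 genes of lipogenesis 3 were higher and 1 lower at an unadjusted p under 0.05, and of 12 genes of lipolysis and lipid droplets 1 was higher and 1 lower. G0s2, an inhibitor of the lipase ATGL, was at 117.1, 125.3 and 110.2 TPM in vehicle and 61.2, 92.2 and 75.1 TPM in weekly quadriceps (-0.64 ± 0.19, adjusted p = 0.201 in limma). Plin5, a perilipin of oxidative muscle, was at 36.0, 36.8 and 34.6 TPM in vehicle and 39.7, 40.1 and 41.9 TPM in weekly muscle (0.18 ± 0.05, adjusted p = 0.188). Among growth factors and SOCS proteins, 27 tested, 2 were higher and 5 lower at an unadjusted p under 0.05 (TMM 2 and 3). Socs2, a brake on growth hormone signalling, was at 8.81, 16.1 and 12.5 TPM in vehicle and 5.61, 9.21 and 7.18 TPM in weekly muscle, with overlap. Collagen and matrix genes had 0 of 30 called by limma and 0 at an unadjusted p under 0.05, and vehicle replicates 1 and 2 lay at opposite ends, with list medians of -0.22 and 0.22 against the vehicle mean. The 19 heat shock proteins had 0 higher and 4 lower (TMM 0 and 1) and were spread in the same way between these vehicle libraries (-0.22 and 0.21). By the same count the 17 immediate early genes had 3 higher and 2 lower (TMM 3 and 2). The 17 mTOR regulators had 0 and 3 (TMM 0 and 2). The 13 amino acid transporters had 1 and 2 (TMM 1 and 2), and the 25 metallothioneins and antioxidants 1 and 5 (TMM 2 and 1). All 7 tested proliferation genes were negative, beside 70.5% of all genes, with 0 at an unadjusted p under 0.05.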
